A study of Mus musculus with 50 samples.

Results

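The genes described here encode the cytotoxic granule and its partners, and they were taken by gene symbol, not by their values: Gzma, Gzmb, Gzmc, Gzmk, Gzmm, Prf1, Fasl, Nkg7, Srgn and Serpinb9. All 10 were found among the 21647 genes of the deposited count table, and all 10 passed the filter on low counts that left 13294 genes for testing. CD8+ T cells were isolated with anti-CD8a beads from spleens of 10 week old mice, on a background that the labels spell C567BL/6J. The cells were sequenced at 0h, before activation, and after 2h, 6h, 12h and 24h on plate-bound anti-CD3e with soluble anti-CD28. The KO mice carried the allele labelled Arg2tm1Weo/J, in the gene for mitochondrial arginase 2, and the other mice were wild type (WT). There were 5 mice per genotype, each sampled at all 5 times, which gave 50 libraries.

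The counts of Arg2 did not separate the genotypes. Arg2 had 0 to 22 reads per library in the 25 KO libraries (median 8) and 0 to 15 reads in the 25 WT libraries (median 6). At 0h the 5 KO libraries held 5, 12, 8, 16 and 0 reads and the 5 WT libraries 5, 6, 4, 7 and 0 reads. edgeR did not call Arg2 in KO against WT at any time (adjusted p = 0.317 to 1). A count per gene does not show whether its reads lie in the disrupted part of the gene, so it does not check the labels, and KO and WT below name the labels.

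Cytotoxic T cells kill by releasing granules at the contact with a target cell. Perforin lets granzymes, a family of serine proteases, enter the target, where they cleave proteins and lead to its death, and the proteoglycan serglycin packs them in the granule. A separate route uses Fas ligand, a surface protein that engages the death receptor Fas. Naive CD8 T cells hold little of this machinery and acquire it after activation, while memory T cells and natural killer cells carry some of it from the outset.

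The promoters of 3 granzymes are shown first, because Gzmb and Gzmc rose during activation and Gzmm fell and differed between the genotypes. They are RefSeq sequences on GRCm38.p6, from 250 bases before to 50 after the start, and all 10 genes had one. Capitals mark matches on either strand to TGANTCA (AP-1), TGTGGT (Runx), AGGTGT (T-box) or GGAAAA (NFAT core).
Gzmb, chr14:56262285-56262584, minus strand: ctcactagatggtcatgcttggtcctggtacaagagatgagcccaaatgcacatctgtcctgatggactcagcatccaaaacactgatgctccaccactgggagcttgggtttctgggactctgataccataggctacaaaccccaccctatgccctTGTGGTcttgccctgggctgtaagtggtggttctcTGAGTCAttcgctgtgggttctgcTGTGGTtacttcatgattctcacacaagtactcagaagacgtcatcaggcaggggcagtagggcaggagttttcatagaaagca
Gzmc, chr14:56234608-56234907, minus strand: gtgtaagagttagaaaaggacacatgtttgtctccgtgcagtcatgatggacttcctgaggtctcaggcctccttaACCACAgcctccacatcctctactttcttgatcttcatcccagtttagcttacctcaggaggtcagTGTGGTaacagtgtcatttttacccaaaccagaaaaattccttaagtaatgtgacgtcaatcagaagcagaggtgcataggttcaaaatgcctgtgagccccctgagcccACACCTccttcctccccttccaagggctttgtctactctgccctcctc
Gzmm, chr10:79688770-79689069, plus strand, 1 of 2 promoters listed: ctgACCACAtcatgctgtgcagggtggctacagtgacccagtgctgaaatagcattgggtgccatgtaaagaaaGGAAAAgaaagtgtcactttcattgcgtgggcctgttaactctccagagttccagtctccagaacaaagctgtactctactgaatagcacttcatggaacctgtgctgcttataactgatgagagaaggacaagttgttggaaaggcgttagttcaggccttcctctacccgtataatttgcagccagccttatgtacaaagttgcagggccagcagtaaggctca
Gzmb held 1 AP-1 match and 2 Runx matches, Gzmc held 2 Runx matches and 1 T-box match, and Gzmm held 1 Runx match and 1 NFAT match. Over the 10 genes the Runx letters were found in 7 promoters (those of Gzma, Gzmb, Gzmc, Gzmm, Prf1, Nkg7 and Serpinb9), against 16.9% of 27025 promoters of the same length. The T-box letters were in 5 (13.9% of all promoters), the NFAT letters in 4 (23.6%) and the AP-1 letters in 1 (7.93%). These counts describe the windows, and binding was not measured.

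The libraries held 9571625 to 31293872 counted reads (median 23548632), and levels are given as CPM, counts per 1000000 reads of the scaled library size. All 10 libraries of WT mice 1 and 4 stood apart from the other 40. At 0h, 5 immature thymocyte markers (Rag1, Rag2, Dntt, Ptcra and Arpp21) summed to 8.37 to 75.0 CPM in KO mice, 1147 to 1534 CPM in WT mice 1 and 4 and, in WT mice 2, 3 and 5, 8.79 to 32.1 CPM. The 6 CD8 T cell markers (Cd8a, Cd8b1, Cd3d, Cd3e, Cd3g and Lck) summed to 5190.0 to 7264 CPM in KO mice and 3366 to 3755 CPM in WT mice 1 and 4. In WT mice 2, 3 and 5 they summed to 6624 to 17210.0 CPM (median 6692). Markers of the labelled cell type were thus detected in every mouse, and at 0h they were lowest in WT mice 1 and 4. That order did not last. At 12h the 6 markers summed to 2362 to 2843 CPM in KO mice, 3208 to 3243 CPM in WT mice 1 and 4 and, in WT mice 2, 3 and 5, 2705 to 3112 CPM. The main results that rest on WT mice are therefore also given without those 2 mice. Among the mice kept, WT mouse 3 had at 0h a library size scaling factor of 0.783, against 0.918 to 1.12 in all other libraries. That library enters the WT changes from 0h with and without WT mice 1 and 4. The part of the thymocyte signal in the results was not tested.

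**Figure D1:**
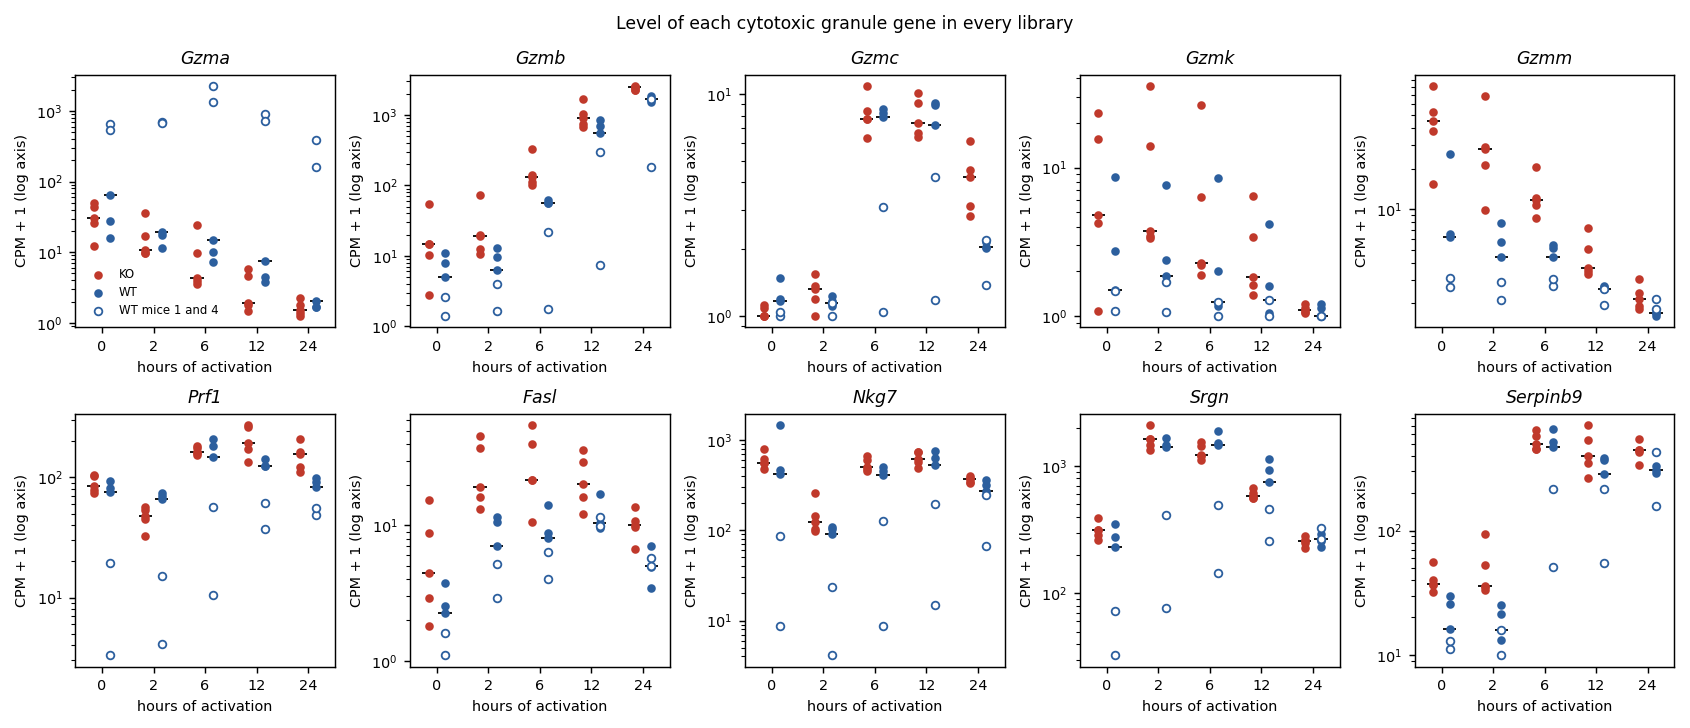
Level of each of the 10 genes in every library (CPM plus 1 on a log axis) by time of activation in hours, KO left of WT at each time, with open circles for WT mice 1 and 4 and a short bar at each group's median. Gzmb reaches 2238 to 2579 CPM in KO and 183 to 1884 CPM in WT at 24h, and the open circles of Gzma lie far above all other mice.

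Activation moved the 10 genes in both directions. In KO cells 3 genes rose and 1 fell at 2h against 0h by edgeR at an adjusted p under 0.05, where 20.3% of all tested genes rose and 19.6% fell. At 6h 5 rose and 1 fell in KO (26.8% and 22.4% of all genes), at 12h 4 rose and 2 fell (27.8% and 25%), and at 24h 3 rose and 3 fell (30.7% and 28%). In WT cells 2 rose and 1 fell at 2h (14% and 16.2% of all genes), 5 rose and 1 fell at 6h (20.2% and 19.7%), 5 rose and 1 fell at 12h (19.3% and 20.2%), and 4 rose and 2 fell at 24h (19.9% and 24.2%). In either direction, 4, 6, 6 and 6 of the 10 genes were called in KO at the 4 times, against 39.9%, 49.2%, 52.8% and 58.7% of all genes, so the number called was close to the background. In WT 3, 6, 6 and 6 were called, against 30.2%, 39.9%, 39.4% and 44.1% of all genes. The median log2 change of the 10 genes was 0.33, 1.49, 1.08 and 0.20 in KO and -0.14, 2.01, 1.37 and 0.50 in WT, where the median of all tested genes was -0.08, -0.04, -0.03 and 0.02 in KO and -0.08, -0.05, -0.09 and -0.08 in WT. In bulk RNA, fewer cells that express a gene and less RNA per cell cannot be told apart.

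**Figure D2:**
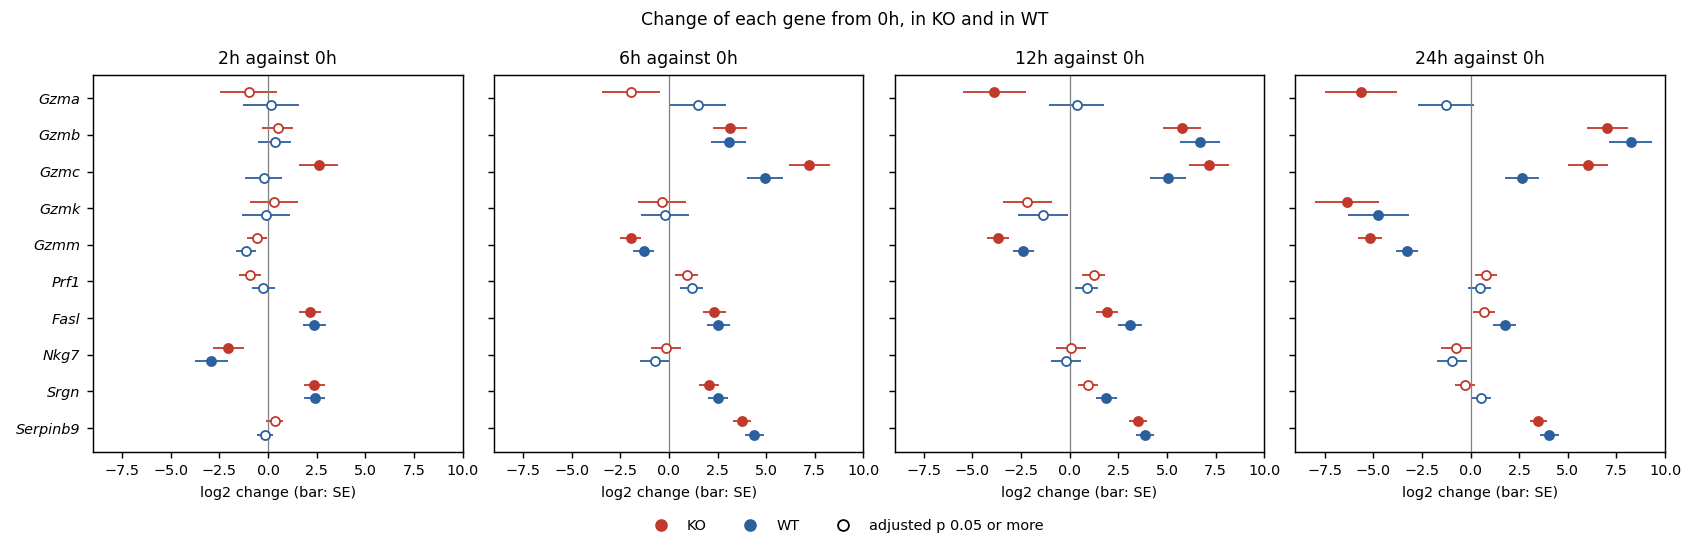
Log2 change of each gene from 0h at 2h, 6h, 12h and 24h (point and standard error), KO above WT for each gene, open where edgeR's adjusted p is 0.05 or more. Gzmb reaches 7.03 in KO and 8.23 in WT at 24h, and Gzmm reaches -5.17 in KO and -3.27 in WT.

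Gzmb (chromosome 14, 56258838 to 56262260, minus strand, GRCm38) encodes granzyme B, which cleaves caspases and other proteins after aspartate. The 0h level was 13.6, 13.9, 1.74, 9.19 and 53.6 CPM in KO mice 1 to 5 and 0.410, 10.2, 4.05, 1.61 and 6.84 CPM in WT mice 1 to 5. The 6h levels were 110.0, 100.4, 139, 131 and 323 CPM in KO mice and 0.753, 55.7, 55.0, 21.1 and 61.3 CPM in WT mice. By 24h it had reached 2474, 2238, 2255, 2526 and 2579 CPM in KO mice and 183, 1884, 1511, 1663 and 1709 CPM in WT mice. KO and WT overlapped at 0h, every KO mouse was above every WT mouse at 6h and 24h, and WT mouse 1 was the lowest mouse at every time. The log2 change of Gzmb from 0h was 3.12 at 6h (SE 0.87, edgeR adjusted p = 0.00284), 5.77 at 12h and 7.03 at 24h in KO. In WT it was 3.07 at 6h (SE 0.88, edgeR adjusted p = 0.00480), 6.69 at 12h and 8.23 at 24h, all called. At 2h all 10 mice were above their own 0h value, with changes of 0.50 in KO and 0.34 in WT that were not called. With WT mice 1 and 4 left out, the WT change at 24h was 7.88 (SE 0.84).

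Gzmc (chromosome 14, 56231441 to 56234656, minus strand) encodes granzyme C, which lies in the same granzyme cluster as Gzmb. The granzymes of this cluster resemble each other, and how reads matching several of them were counted is not given in the sources used here, so the split of reads among them is uncertain. Gzmc had 0, 2, 0, 3 and 0 reads in KO mice 1 to 5 and 0, 5, 5, 1 and 5 reads in WT mice 1 to 5 at 0h. The 6h levels were 5.36, 7.41, 6.73, 9.87 and 6.69 CPM in KO mice and 0.0377, 7.18, 7.54, 2.11 and 6.88 CPM in WT mice. The 24h levels were 5.13, 2.14, 1.83, 3.24 and 3.53 CPM in KO mice and 0.379, 1.15, 1.05, 1.19 and 1.02 CPM in WT mice. Gzmc was thus nearly absent before activation and lower at 24h than at 6h in 9 of 10 mice, WT mouse 1 being the exception, and at 24h every KO mouse was above every WT mouse. The log2 change at 6h was 7.22 in KO (SE 1.04, edgeR adjusted p = 3.32e-07) and 4.93 in WT (SE 0.92, adjusted p = 3.57e-05), sizes that rest on the few reads at 0h. KO was called already at 2h, at 2.60 (adjusted p = 0.0318), and WT was not, at -0.22. The KO level at 2h was only 0 to 0.547 CPM, and 1 KO mouse was below its own 0h value. The KO call was lost with mouse as a random block in limma-voom (adjusted p = 0.111). The difference between the KO and WT changes at 2h was not called (edgeR adjusted p = 0.779).

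Gzma, Gzmk and Gzmm fell in KO by 24h, and Gzmk and Gzmm fell in WT. Gzma (chromosome 13, 113093825 to 113100981, minus strand) encodes granzyme A, a tryptase. At 0h Gzma was measured at 11.2, 24.9, 29.6, 48.5 and 42.8 CPM in KO mice 1 to 5 and 651, 26.6, 64.4, 533 and 15.2 CPM in WT mice 1 to 5. The 6h levels were 2.49, 8.64, 2.94, 3.38 and 23.5 CPM in KO mice and 2255, 13.99, 9.11, 1332 and 6.32 CPM in WT mice. The 24h levels were 0.261, 1.23, 0.499, 0.795 and 0.386 CPM in KO mice and 383, 1.05, 0.700, 160.2 and 0.663 CPM in WT mice. WT mice 1 and 4 were far above the other 8 mice at every time, and in those 8 mice Gzma was lower at each later time than at 0h. KO fell by 3.87 on the log2 scale at 12h (SE 1.64, edgeR adjusted p = 0.0437) and fell by 5.63 at 24h (SE 1.84, adjusted p = 0.00859). WT was not called at any time, with 1.49 at 6h, 0.35 at 12h and -1.24 at 24h (adjusted p = 0.507). When WT mice 1 and 4 were left out, WT changed by -1.85 at 6h, -3.09 at 12h and -5.43 at 24h (SE 0.90, adjusted p = 2.88e-06). With mouse as a block in edgeR, KO was also called at 2h (-1.20, adjusted p = 0.0482; 49.3% of all genes called) and 6h (-2.39; 58.9%), and WT was called at 12h (-1.89; 47.8%) and 24h (-3.75; 55%).

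**Figure D3:**
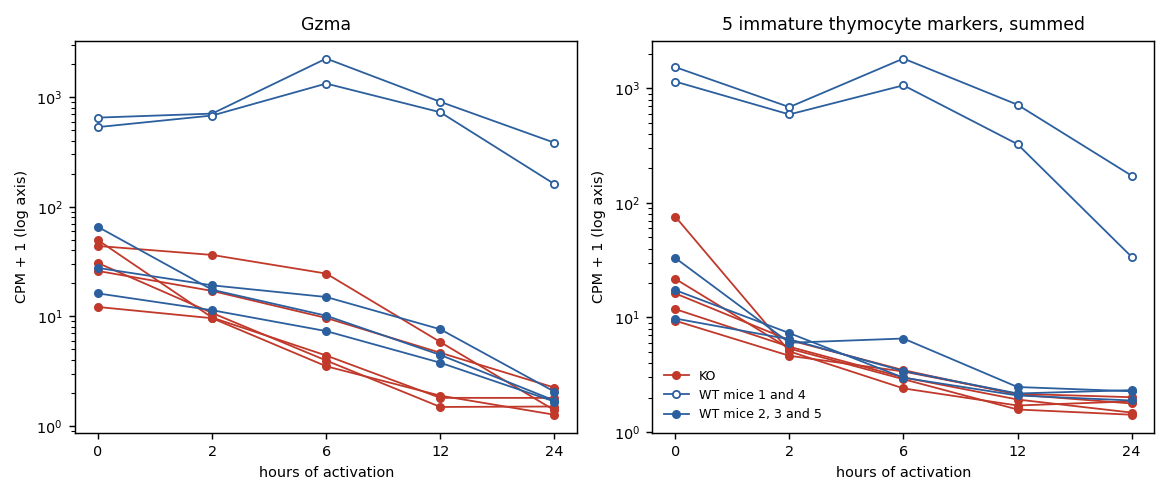
Left, Gzma in each mouse (CPM plus 1 on a log axis) by time of activation in hours; right, the sum of the 5 immature thymocyte markers in the same libraries. Each line is a mouse, red for KO and blue for WT, and both measures are higher in WT mice 1 and 4 (open circles) than in the other 8 mice at each time; Gzma there is 2255 and 1332 CPM at 6h.

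Gzmk (chromosome 13, 113171608 to 113225908, minus strand) encodes granzyme K, a tryptase known from memory CD8 T cells. At the start it was measured at 14.6, 3.82, 0.0723, 3.23 and 22.2 CPM in KO mice 1 to 5 and 0.0683, 0.485, 1.73, 0.466 and 7.58 CPM in WT mice 1 to 5. At 24h 3, 2, 1, 1 and 4 reads were left in the KO libraries and 0, 6, 0, 0 and 3 reads in the WT libraries. KO mice 1 and 5 and WT mouse 5 were the highest of their groups at 0h, and the genotypes overlapped at every time. Gzmk fell by 6.35 on the log2 scale at 24h in KO (SE 1.62, edgeR adjusted p = 9.60e-04) and fell by 4.74 in WT (SE 1.56, adjusted p = 0.0123). At 12h it was called with mouse as a block, at -2.04 in KO (62% of all genes called) and -1.46 in WT, and not without the block, nor in WT without WT mice 1 and 4, at -1.46 (adjusted p = 0.382).

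Gzmm (chromosome 10, 79689020 to 79695261, plus strand) encodes granzyme M, a protease best known from natural killer cells. Before activation its level was 80.8, 14.2, 51.1, 44.3 and 37.2 CPM in KO mice 1 to 5 and 1.64, 5.17, 24.7, 2.08 and 5.52 CPM in WT mice 1 to 5. The 2h levels were 67.6, 8.86, 20.4, 27.7 and 27.1 CPM in KO mice and 1.12, 3.42, 6.83, 1.87 and 4.71 CPM in WT mice. The 24h levels were 2.04, 0.821, 1.37, 0.909 and 1.16 CPM in KO mice and 1.14, 0.711, 0.700, 0.810 and 0.619 CPM in WT mice. At 0h only KO mouse 2 lay below the highest WT mouse, mouse 3, while every KO mouse was above every WT mouse at 2h, 6h and 12h and the ranges overlapped at 24h. Gzmm was called lower than at 0h from 6h on in both genotypes. The WT call at 6h (-1.30, edgeR adjusted p = 0.0431) was lost with only the libraries compared (adjusted p = 0.269). It was also lost in limma-voom with mouse as a random block (adjusted p = 0.436), and kept with the edgeR block (adjusted p = 0.0350). Changes of log2(CPM + 1) at 6h in WT mice 1 to 5 were 0.03, -0.49, -2.25, -0.02 and -0.34. At 24h Gzmm fell by 5.17 on the log2 scale in KO (SE 0.61, edgeR adjusted p = 6.24e-09) and fell by 3.27 in WT (SE 0.57, adjusted p = 1.43e-05).

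Prf1 (chromosome 10, 61297833 to 61304680, plus strand) encodes perforin. The 0h level was 77.4, 73.8, 101, 83.2 and 103 CPM in KO mice 1 to 5 and 2.32, 92.5, 74.0, 18.5 and 80.0 CPM in WT mice 1 to 5. The 12h levels were 261, 133, 190.5, 171 and 270.1 CPM in KO mice and 36.3, 124, 140.3, 60.4 and 124 CPM in WT mice. The 24h levels were 208, 111, 122, 162 and 156 CPM in KO mice and 47.2, 82.8, 89.7, 54.4 and 97.8 CPM in WT mice. Each KO mouse was below its own 0h value at 2h and above it at 6h, 12h and 24h, and at 24h every KO mouse was above every WT mouse. With all 50 libraries in 1 fit, edgeR called no change of Prf1 from 0h in either genotype (KO at 12h 1.23, SE 0.59, adjusted p = 0.0765). In that fit KO and WT share 1 estimate of the spread. When only the libraries compared were fitted, KO was called at all 4 times, at -0.89, 0.88, 1.19 and 0.65 (edgeR adjusted p = 2.71e-04, 1.93e-05, 1.74e-04 and 0.00408). WT was not called at any time in those fits. Without WT mice 1 and 4, the KO changes were -0.95, 0.89, 1.22 and 0.80 over the 4 times, all called (at 12h SE 0.17, adjusted p = 1.01e-07), and WT rose by 1.12 at 6h and 0.61 at 12h. With mouse as a block and all mice, KO was called at 2h (-0.90), 6h (0.92) and 12h (1.20) and WT at 6h (1.27; 47.8% of all genes), 12h (1.38) and 24h (1.27). Without the block, the WT change at 24h was 0.48 with all mice and 0.13 without WT mice 1 and 4 (SE 0.21, edgeR adjusted p = 0.604), neither called.

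Fasl (chromosome 1, 161780689 to 161788495, minus strand) encodes Fas ligand. At 0h it was measured at 7.83, 1.91, 0.795, 3.43 and 14.5 CPM in KO mice 1 to 5 and 0.102, 1.52, 1.25, 0.609 and 2.76 CPM in WT mice 1 to 5. The 2h levels were 36.3, 12.2, 15.2, 18.2 and 44.9 CPM in KO mice and 1.93, 9.65, 6.09, 4.22 and 10.6 CPM in WT mice. The 24h levels were 12.8, 5.65, 8.77, 9.15 and 9.80 CPM in KO mice and 4.79, 2.44, 3.90, 4.00 and 6.01 CPM in WT mice. All 10 mice were higher at 2h than at 0h, every KO mouse was above every WT mouse at 2h, and KO mice 1 and 5 were the highest mice at each time. Fasl rose by 2.15 at 2h in KO (SE 0.58, edgeR adjusted p = 0.00263) and by 2.38 in WT (SE 0.60, adjusted p = 0.00201), and at 6h and 12h it was called in both. At 24h the change was 0.69 in KO (adjusted p = 0.288) and 1.76 in WT (adjusted p = 0.0135). The KO value was called with mouse as a block, at 1.13 (66.2% of all genes called), and the WT value was not called without WT mice 1 and 4, at 1.11 (adjusted p = 0.152).

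Nkg7 (chromosome 7, 43437073 to 43438249, plus strand) encodes a small granule membrane protein needed for granule release. At the start it was measured at 551, 476, 797, 551 and 620.3 CPM in KO mice 1 to 5 and 7.79, 414, 1452, 84.4 and 467 CPM in WT mice 1 to 5. The 2h levels were 142, 97.2, 122, 103 and 257 CPM in KO mice and 3.15, 101, 106, 22.7 and 89.7 CPM in WT mice. The 6h levels were 456 to 660.5 CPM in KO mice and 7.76 to 506 CPM in WT mice. All 10 mice were lower at 2h than at 0h, and the genotypes overlapped at each time. Nkg7 fell by 2.05 on the log2 scale at 2h in KO (SE 0.80, edgeR adjusted p = 0.0362) and fell by 2.91 in WT (SE 0.83, adjusted p = 0.00606). From 2h to 6h it rose by 1.90 in KO and 2.21 in WT, and later times were not called against 0h.

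Srgn (chromosome 10, 62493833 to 62527451, minus strand) encodes serglycin. Before activation its level was 312, 312, 391, 286 and 262 CPM in KO mice 1 to 5 and 31.7, 230.1, 346, 71.8 and 275 CPM in WT mice 1 to 5. The 2h levels were 2085, 1613, 1641, 1341 and 1470.0 CPM in KO mice and 75.5, 1404, 1668, 409 and 1449 CPM in WT mice. The 24h levels were 280.5, 248, 226, 260.0 and 256 CPM in KO mice and 268, 229.8, 255, 326 and 294 CPM in WT mice. All 10 mice were higher at 2h than at 0h, the genotypes overlapped, and WT mice 1 and 4 were the lowest mice at 0h and 2h but not at 24h. Srgn rose by 2.38 at 2h in KO (SE 0.53, edgeR adjusted p = 3.32e-04) and by 2.39 in WT (SE 0.53, adjusted p = 5.19e-04), and at 24h the changes were -0.30 in KO and 0.52 in WT, neither called. With mouse as a block, KO was called at 12h (0.94) and WT at 24h (1.30). Without the block, the WT change of Srgn at 24h turned from 0.52 with all mice to -0.13 without WT mice 1 and 4 (SE 0.16, edgeR adjusted p = 0.502), neither called. The edgeR block was not fitted without those mice. Changes of log2(CPM + 1) from 0h to 24h were 3.04 and 2.17 in WT mice 1 and 4. In WT mice 2, 3 and 5 they were -0.002, -0.44 and 0.09.

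Serpinb9 (chromosome 13, 33003250 to 33017957, plus strand) encodes an inhibitor of granzyme B that protects cytotoxic cells from their own protease. The 0h level was 36.0, 35.2, 38.9, 31.1 and 54.7 CPM in KO mice 1 to 5 and 10.1, 24.6, 15.03, 12.0 and 28.9 CPM in WT mice 1 to 5. The 2h levels were 51.7, 34.3, 34.6, 32.4 and 93.6 CPM in KO mice and 8.96, 24.1, 12.2, 14.9 and 20.4 CPM in WT mice. The 6h levels were 449, 451, 573, 499 and 647 CPM in KO mice and 50.1, 469.7, 512, 216 and 653 CPM in WT mice. Every KO mouse was above every WT mouse at 0h and 2h, and the ranges overlapped at 6h. Serpinb9 rose by 3.74 at 6h in KO (SE 0.46, edgeR adjusted p = 1.83e-08) and by 4.39 in WT (SE 0.48, adjusted p = 2.11e-09), and it was still 3.49 and 4.05 above 0h at 24h. At 2h neither genotype was called.

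The changes in WT were also computed without WT mice 1 and 4. Gzmc then rose by 4.85 at 6h (SE 0.57), Fasl by 2.21 at 2h (SE 0.69), Srgn by 2.397 at 2h (SE 0.17) and Serpinb9 by 4.56 at 6h (SE 0.37). The changes of Gzmk and Gzmm at 24h were -4.75 (SE 1.79) and -4.07 (SE 0.66), and that of Nkg7 at 2h was -2.98 (SE 0.33), all 3 called. Calls against 0h that appeared without those mice, beside those of Prf1 and of Gzma in WT, were Gzma in KO at 6h (-1.96, edgeR adjusted p = 0.00326), Nkg7 in KO at 24h (-0.72) and in WT at 6h (-0.79) and 24h (-1.30), and Srgn in KO at 12h (0.93) and 24h (-0.29). The same fit called 5, 8, 8 and 9 of the 10 genes in KO and 3, 9, 8 and 7 in WT at 2h, 6h, 12h and 24h, against 57.6%, 64.6%, 67.1% and 71.2% of all genes in KO and 49.7%, 59.8%, 60.2% and 64.6% in WT. The WT calls of Nkg7 at 6h and 24h were lost when only the libraries compared were fitted without those mice (edgeR adjusted p = 0.269 and 0.0837). In WT mice 2, 3 and 5 the changes of log2(CPM + 1) of Nkg7 were -0.03, -1.70 and 0.12 at 6h. At 24h they were -0.61, -2.18 and -0.37.

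Successive times were also compared. From 2h to 6h, 5 genes rose and 1 fell in KO (24.2% and 19% of all genes, 43.2% in all), and 4 rose and 0 fell in WT (16.1% and 13.2%, 29.3% in all). Gzmb, Gzmc, Nkg7 and Serpinb9 rose in both genotypes, and in KO Prf1 also rose and Gzmm fell. From 6h to 12h Gzmb rose in WT, by 3.62 (SE 0.89, edgeR adjusted p = 0.0387), where 0.444% of all genes rose, and its KO step of 2.65 was not called (adjusted p = 0.0757). From 12h to 24h Gzmc fell in WT, by 2.42 on the log2 scale (adjusted p = 0.0298), where 7.81% of all genes fell and 7.3% rose. In KO edgeR called none of the 10 genes from 6h to 12h (3 at an unadjusted p under 0.05, 2 by DESeq2) or from 12h to 24h (4 and 2), where 2.86% (1.31% higher) and 10% (5.6% higher and 4.42% lower) of all genes were called. With mouse as a block the calls over the 3 steps went up to 16 of 30 in KO (7 higher and 9 lower) and 11 of 30 in WT (7 higher and 4 lower), against 6 in each genotype without it (5 higher and 1 lower), and included KO rises of Gzmb from 6h to 12h (2.73; 9.19% of all genes called) and from 12h to 24h (19.8%). With WT mice 1 and 4 left out, the calls were 18 in KO (7 higher and 11 lower) and 11 in WT (6 higher and 5 lower). Over the 3 steps in KO, that fit called 7, 4 and 7 genes and the block 7, 4 and 5, where all mice with no block gave 6, 0 and 0. With the block the share of all genes called in KO also went up, from 2.86% to 9.19% for 6h to 12h. For 12h to 24h it went up from 10% to 19.8%. Shares for the other steps with the block and for the steps without those mice are not given here. Those counts are therefore not set against all genes. The WT steps of Gzmb from 6h to 12h and of Gzmc from 12h to 24h were 3.56 and -2.74 without those mice (adjusted p = 2.28e-04 and 3.04e-05).

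KO was set against WT at each time. At 0h 2 of the 10 genes were higher in KO and 0 lower (2.34% and 5.59% of all genes), at 2h 3 and 0 (2.9% and 8.9%), at 6h 2 and 1 (2.53% and 7.59%), at 12h 0 and 1 (5.54% and 7.55%), and at 24h 0 and 0 (0.00752% and 0.0376%). At 24h 2 of the 10 had an unadjusted p under 0.05 by edgeR, and DESeq2 called 1, Gzma. When WT mice 1 and 4 were left out, the counts were 1 higher and 1 lower at 0h (8.9% and 13.5% of all genes), 2 and 0 at 2h (1.86% and 2.24%), 0 and 0 at 6h (2.31% and 1.85%), 1 and 1 at 12h (13.9% and 9.03%), and 0 and 0 at 24h (0.0377% and 0.00755%). Since each mouse gave a library at all 5 times and these fits ignore it, their p-values for KO against WT may be too small. For changes with time, where libraries of the same mice are compared, ignoring the mouse can instead make p-values too large. The 8 memory CD8 T cell markers (Cxcr3, Ly6c2, Il2rb, Cd44, Ccl5, Klrk1, Klrg1 and Cd7) summed at 0h to 871 to 1850.0 CPM in KO mice, 86.4 to 224 CPM in WT mice 1 and 4 and, in WT mice 2, 3 and 5, 741 to 1145 CPM. The 6 natural killer cell markers summed to 18.6 to 30.4 CPM in KO mice, 3.31 to 5.87 CPM in WT mice 1 and 4 and, in WT mice 2, 3 and 5, 17.1 to 29.5 CPM. The 5 basophil and mast cell markers summed to 14.6 to 47.5 CPM in KO mice, 6.59 to 7.66 CPM in WT mice 1 and 4 and, in WT mice 2, 3 and 5, 4.82 to 9.95 CPM. The part of these lists in the differences between genotypes was not tested.

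**Figure D4:**
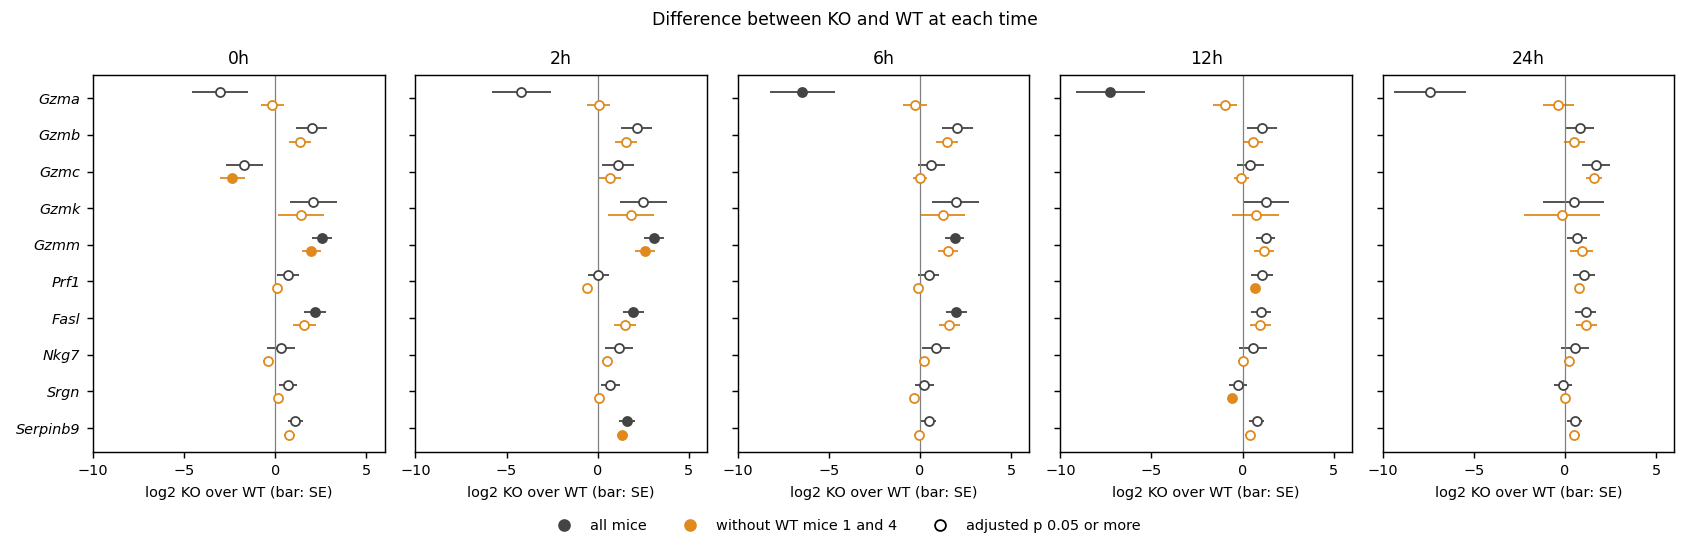
Log2 difference of KO over WT for each gene at each time (point and standard error), with all mice (grey) above the value without WT mice 1 and 4 (orange), open where edgeR's adjusted p is 0.05 or more. Gzmm is filled at 0h and 2h in both, and Gzma, at -7.26 with all mice at 12h, is at -0.95 without WT mice 1 and 4.

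Gzmm was higher in KO by 2.56 on the log2 scale at 0h (SE 0.54, edgeR adjusted p = 0.00430), by 3.10 at 2h (SE 0.55, adjusted p = 7.90e-04) and by 1.90 at 6h (SE 0.53, adjusted p = 0.0234). The 0h and 2h calls held in 10 and 10 of the 10 fits that left out 1 mouse each, and the 6h call in 5, being lost without KO mouse 1, 3 or 4 or WT mouse 1 or 4. Without WT mice 1 and 4 together, the differences were 1.99 at 0h (adjusted p = 0.00795), 2.61 at 2h (adjusted p = 0.00510) and 1.53 at 6h (adjusted p = 0.0904). When the 10 libraries of a time were fitted alone, Gzmm was not called at 0h, 2h or 6h (adjusted p = 0.554, 0.136 and 0.0501) and was called at 12h (1.28, adjusted p = 0.0152). An exact two-sided permutation test over mice on log2(CPM + 1) gave p = 0.0159 at 0h and, at 2h, 6h and 12h, p = 0.00794, the smallest that 5 against 5 can give (adjusted over the 50 pairs of gene and time, 0.0567 and 0.0397).

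Fasl was higher in KO by 2.19 at 0h (SE 0.59, edgeR adjusted p = 0.0218), 1.97 at 2h (adjusted p = 0.0253) and 1.98 at 6h (adjusted p = 0.0275). Those calls were lost without WT mice 1 and 4, at 1.60, 1.497 and 1.60 (adjusted p = 0.0642, 0.141 and 0.116), and at each of the 3 times also without KO mouse 1 or KO mouse 5. Serpinb9 was higher in KO by 1.61 at 2h (SE 0.43, adjusted p = 0.0170) and by 1.35 without WT mice 1 and 4 (adjusted p = 0.00880), a call lost without KO mouse 1, KO mouse 5 or WT mouse 4 alone. Gzma was lower in KO, at -6.45 on the log2 scale at 6h (SE 1.803, adjusted p = 0.0236) and -7.26 at 12h (SE 1.89, adjusted p = 0.0119). The 6h call was lost without any 1 of KO mice 1 to 4 or WT mice 1 or 4, and the 12h call without KO mouse 1, 3 or 4. With WT mice 1 and 4 left out, the Gzma differences were -0.28 and -0.95, neither called (adjusted p = 0.858 and 0.327), and with mouse as a random block in limma-voom Gzma was not called at either time. In the fits of the 10 libraries of a time alone, the calls of Fasl, Serpinb9 and Gzma named here were lost except that of Gzma at 12h (adjusted p = 0.0196).

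Gzmb differed by 2.00, 2.16, 2.05, 1.08 and 0.80 over the 5 times, none called by edgeR with all mice (adjusted p = 0.121, 0.0833, 0.0983, 0.392 and 1.00). Its 6h difference was called by limma-voom with mouse as a random block, at 2.95 with all mice (adjusted p = 0.0250; 5.47% of all genes called) and 1.33 without WT mice 1 and 4 (adjusted p = 0.0429; 4.96%). All KO mice lay above all WT mice for Serpinb9 at 0h, for Gzmm, Fasl and Serpinb9 at 2h, for Gzmb and Gzmm at 6h, for Gzmm at 12h, and for Gzmb, Gzmc and Prf1 at 24h. That made 1, 3, 2, 1 and 3 of 10 genes at the 5 times, against 1.54%, 3.5%, 5.5%, 13% and 2.95% of all genes, and none of the 10 had all KO mice below all WT mice. Without WT mice 1 and 4, all KO mice lay below the remaining WT mice for Gzmc at 0h, Prf1 at 2h and Srgn at 12h. At 24h Gzmm and Serpinb9 then joined the genes with all KO mice above. The shares of all genes with all KO mice below, or without those mice, are not given here. When WT mice 1 and 4 were left out, Prf1 was higher in KO at 12h by 0.70 (SE 0.20, adjusted p = 0.00942) and Srgn was lower at 12h, at -0.61 (SE 0.14, adjusted p = 0.00268). In that fit Gzmc was also lower in KO at 0h, at -2.34 (adjusted p = 0.0173), on the few reads given above. When only the libraries compared were fitted without those mice, edgeR called Gzmb higher in KO at 24h, by 0.52 (SE 0.078, adjusted p = 0.00842). Gzmc was called higher at 24h, by 1.57 (SE 0.33, adjusted p = 0.0192). Those fits also called Gzmm higher at 6h and 12h, Prf1 higher at 12h and Srgn lower at 12h.

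Whether activation changed a gene differently in KO and in WT was tested as the KO change minus the WT change. edgeR called none of the 40 pairs of gene and time, 3 had an unadjusted p under 0.05, and DESeq2 called 0. Of all genes 0.015%, 2.47%, 7.5% and 0.0752% were called at 2h, 6h, 12h and 24h. With mouse as a block 3 pairs were called, Gzmm at 12h (-1.71, SE 0.50, adjusted p = 0.0224) and 24h (-2.39, SE 0.53, adjusted p = 0.0212) and Gzma at 12h (-2.35, SE 0.77, adjusted p = 0.0393), where 12.3% of all genes were called at 12h and 0.752% at 24h. Without the block, these 3 values were -1.29 and -1.89 for Gzmm and -4.22 for Gzma with all mice, none called. With WT mice 1 and 4 also left out, they were -0.81 and -1.08 for Gzmm and -0.79 for Gzma, none called (edgeR adjusted p = 0.478, 0.491 and 0.607). The edgeR block was not fitted without those mice. In the fit with neither the block nor those mice another 3 were called, Gzmc at 12h (2.28, adjusted p = 0.0420) and 24h (3.91, adjusted p = 0.0187) and Srgn at 12h (-0.75, adjusted p = 0.00950), where 20.5% and 0.86% of all genes were called at 12h and 24h.

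Divided by the exon length of each gene, the order of the levels changed during the day. At 0h in KO, Nkg7 led at 656 ± 133 CPM per kb (SD, n = 5), followed by Srgn at 142 ± 22.2 CPM per kb and then by Prf1, Gzma and Gzmm at 33.9, 31.2 and 30.9 CPM per kb, whose ranges overlapped. At 24h in KO, Gzmb led at 1681 ± 109.5 CPM per kb, above Nkg7 at 397 ± 29.2, while Serpinb9 at 126 ± 21.8 and Srgn at 116 ± 9.02 CPM per kb overlapped. Gzmk was last at 24h, at 0.0739 ± 0.0440 CPM per kb. In WT mice 2, 3 and 5 the first place was also held by Nkg7 at 0h, at 851 ± 640.0 CPM per kb, and by Gzmb at 24h, at 1185 ± 130.1 CPM per kb (SD, n = 3). Over all 5 WT mice Nkg7 at 0h, at 531 ± 631 CPM per kb, overlapped with Gzma at 256 ± 306 CPM per kb.

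The other genes of the pathway were counted from lists by function, and at 24h 30.7% of all tested genes rose and 28% fell in KO, and 19.9% rose and 24.2% fell in WT. Without WT mice 1 and 4 those shares were 36.7% and 34.5% in KO and 32.5% and 32% in WT. None of the 5 other granzymes of the list (Gzmd, Gzme, Gzmf, Gzmg and Gzmn) passed the filter on low counts. Of 8 granule processing enzymes and inhibitors, 3 rose and 2 fell in KO at 24h, and 1 rose and 2 fell in WT (leaving out WT mice 1 and 4, 3 and 2 in KO and 1 and 3 in WT). Serpinb6b, a relative of Serpinb9, rose by 3.03 in KO (SE 0.35) and 2.97 in WT (SE 0.35), and Ctsl, the gene for the protease cathepsin L, changed by -1.20 in KO and -0.91 in WT. Of 15 tested genes of granule movement and fusion, 4 rose and 6 fell in KO at 24h, and 4 rose and 4 fell in WT (leaving out WT mice 1 and 4, 4 and 7 in KO and 5 and 5 in WT). Stx11, a syntaxin required for granule release, rose by 2.39 in KO and 3.13 in WT, Rab27a, which docks granules, rose by 0.69 and 0.45, and Unc13d, which primes them for fusion, changed by -1.09 and -0.92.

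Of 8 other death ligands, receptors and adaptors, 4 rose and 1 fell in KO at 24h, and 4 rose and 0 fell in WT (leaving out WT mice 1 and 4, 4 and 2 in KO and 3 and 1 in WT). Lta, the gene for lymphotoxin alpha, rose by 4.73 in KO and 4.39 in WT, and Tnf, the gene for tumour necrosis factor, rose by 3.54 and 3.62. Of 13 tested transcription factors linked to cytotoxic genes, 4 rose and 3 fell in KO at 24h, and 5 rose and 2 fell in WT (leaving out WT mice 1 and 4, 6 and 4 in KO and 6 and 3 in WT). Irf4, a factor induced by the T cell receptor, rose by 5.31 in KO (SE 0.59) and 5.33 in WT (SE 0.59), and Tbx21, the gene for T-bet, rose by 2.32 and 3.78. The WT changes of these genes at 24h without WT mice 1 and 4 were 3.17 for Serpinb6b, -1.30 for Ctsl, 3.30 for Stx11, 0.63 for Rab27a, -1.502 for Unc13d, 4.22 for Lta, 3.40 for Tnf, 6.44 for Irf4 and 3.56 for Tbx21, all called. Between genotypes, 3, 2, 4, 5 and 0 of the 13 factors were higher in KO than in WT at 0h, 2h, 6h, 12h and 24h, against 2.34%, 2.9%, 2.53%, 5.54% and 0.00752% of all genes, and 0 were lower at any time. The counts without WT mice 1 and 4 were 5, 3, 2, 7 and 0, against 8.9%, 1.86%, 2.31%, 13.9% and 0.0377% of all genes, and 0 were lower. Eomes, a T-box factor of memory and natural killer cells, was higher in KO by 2.75 at 2h (SE 0.65, edgeR adjusted p = 0.00863), 2.48 at 6h and 1.81 at 12h, and by 2.09, 2.01 and 1.59 without WT mice 1 and 4, all called. Prdm1, the gene for Blimp-1, was higher by 1.46, 1.55, 1.55 and 1.42 at the first 4 times, and without those mice it was called at 12h alone, at 1.74 (adjusted p = 0.00494).

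The other genes whose log2 CPM followed a member most closely were ranked over the 50 libraries, which come from 10 mice, so the coefficients are a description. For Gzmb these were Mdfic, Zbtb32 and Socs2 (Pearson r = 0.962, 0.949 and 0.93). Zbtb32, the gene for a zinc finger factor of activated lymphocytes, stood at 229 to 294 CPM in KO and 32.8 to 221 CPM in WT at 24h, against 1.16 to 6.87 CPM in KO and 0.410 to 1.79 CPM in WT at 0h. For Gzmm they were the immunoglobulin genes Ighm, Ighg2c and Igkc (r = 0.927, 0.92 and 0.904, and 0.921, 0.925 and 0.899 over the 40 libraries without WT mice 1 and 4). Ighm stood at 2671 to 5905 CPM in KO and 374 to 3103 CPM in WT at 0h. The 4 B cell markers (Cd79a, Cd79b, Ms4a1 and Pax5) summed at 0h to 54.6 to 281 CPM in KO mice, 4.65 to 9.27 CPM in WT mice 1 and 4 and, in WT mice 2, 3 and 5, 29.0 to 196 CPM, and their part in the Gzmm values was not tested. For Prf1 the closest were Ubash3b, Zfp827 and Ccnd2 (r = 0.941, 0.939 and 0.93), for Fasl Lilrb4a, Lilr4b and Casp4 (the first 2 being near-identical relatives, r = 0.902, 0.869 and 0.852), and for Nkg7 Fam174b, Pacsin1 and Rcn1 (r = 0.961, 0.931 and 0.93). With WT mice 1 and 4 left out, the coefficients of the last 3 were 0.853, 0.778 and 0.629.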

How the data were processed

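CD8+ T cell RNA was sequenced with a stranded mRNA kit, per the labels' protocols. The deposited values are raw read counts per gene, made by the authors with CASAVA 1.8.2, STAR 2.4 and featureCounts 1.4.6 on GRCm38, per the submitters' processing notes; annotation release, strand setting and treatment of multiply mapped reads are not given in the sources used here. Of 21647 gene IDs, 21583 matched a symbol in the RefSeq table, and 64 did not. Library totals were 9571625 to 31293872 reads.

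Counts were fitted with edgeR 4.0.16 in R 4.3.3 (quasi-likelihood, robust, TMM, 10 group means, all 50 libraries), after a filter by group (minimum count 10, minimum total 15) that kept 13294 genes. P-values were adjusted by Benjamini-Hochberg over those genes (threshold 0.05), and the standard error is the log2 change divided by the square root of F. CPM use TMM-scaled library sizes. Alternatives used limma 3.58.1 (voom), DESeq2 1.42.0, other scalings, no filter, only the libraries compared, 1 mouse left out at a time, and mouse as a block. Leaving out WT mice 1 and 4, and the permutation tests, were chosen after seeing the data. The edgeR fit without a block was tested on simulated data, for a change with time in KO. The other fits and KO against WT were not tested in that way. The effect of sampling each mouse at several times was not tested there either.

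All times of a mouse come from the same animal. Deviations from group means correlated between times within a mouse, with mean r of 0.212 to 0.356 in KO mice and 0.415 to 0.638 in WT mice; equal numbers in KO and WT gave -0.197 to 0.139 and mark no pair. The members and lists were chosen with earlier results of these data known. Named genes are all members, up to 4 per list with the smallest adjusted p in KO at 24h, those called in KO against WT at 3 or more times, and the 3 genes most like each of 5 members. Genes with no ID match (Vamp7, Zfp683, Klra4 and Trdc) were not analysed here. The summed levels of immature thymocyte and B cell markers leave out 1 gene each, which is not reported here.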

Additional observations from a re-analysis of the deposited data

Results flagged for a closer look

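Of the 100 groups of 5 libraries made by the 10 genes, 2 genotypes and 5 times, 15 held a mouse whose CPM stood far from the other 4. In independent groups chance flags about 1 in 20, but these groups share mice, so the 15 cannot be judged against that rate. The rule looks for 1 mouse apart from 4, and Gzma in WT mice 1 and 4 was not flagged. KO mouse 5 was high for Gzmb at 0h, 2h and 6h, at 53.6, 72.2 and 323 CPM, and for Gzma at 2h, at 35.3 CPM. KO mouse 5 was also high for Gzmk at 6h, at 25.6 CPM, and for Nkg7 at 2h, at 256.7 CPM. WT mouse 5 was high for Gzmk at 0h, 2h, 6h and 12h, at 7.58, 6.62, 7.54 and 3.14 CPM, and for Fasl at 12h, at 16.2 CPM. WT mouse 1 was low for Gzmb and Gzmc at 24h, at 182.6 and 0.379 CPM, and for Gzmm at 12h, at 0.959 CPM. WT mouse 3 was high for Gzmm at 0h, at 24.7 CPM.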

How the results depend on the processing

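The calls among the 10 genes numbered 22 of 40 in KO and 21 of 40 in WT against 0h, 6 of 30 steps in each genotype, 9 of 50 for KO against WT and 0 of 40 for the difference of changes. Leaving out 1 mouse gave 19 to 27 and 19 to 22 calls against 0h in KO and WT, 3 to 12 and 2 to 8 for their steps, 2 to 15 for KO against WT and 0 to 2 for the difference of changes. The highest count for KO against WT, 15, came without WT mouse 5, and the lowest, 2, without KO mouse 1; the others moved by over 1.5 times were without KO mice 3, 4 and 5 (5, 4 and 5) and WT mice 1 and 4 (5 and 3). KO steps gave 3 calls without KO mouse 1 and 12 without WT mouse 1. WT steps gave 3 calls without KO mouse 2, WT mouse 2 or WT mouse 4 and 2 without WT mouse 3 or 5. The difference of changes gave 2 without WT mouse 3.

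With mouse as a replicate block, edgeR called 30 of 40 changes from 0h in KO and 28 of 40 in WT. It also called 16 KO steps, 11 WT steps and 3 differences of changes, and limma-voom with the block called 10 KO steps. The edgeR block cannot give KO against WT. Without WT mice 1 and 4, edgeR called 18 KO steps, 11 WT steps and 3 differences of changes, limma-voom with the block 18, 12 and 3, and the fit of only the libraries compared 20 WT steps. With all mice, the fit of only the libraries compared called 7 changes from 0h in WT, 17 KO steps and 4 differences of KO against WT. DESeq2 called 10 KO steps, and limma-voom without a block 2 WT steps and 4 differences of KO against WT. Gzma in WT turned negative without WT mice 1 and 4, at -1.85 at 6h (-1.52 by limma-voom with the block) and at -3.09 at 12h (-3.10 with only the libraries compared, -2.75 by limma-voom with the block), and at -1.89 at 12h with the edgeR block. The causes of these moves were not tested, and the counts are not set beside the shares of all genes called in the same fits. Of 64 calls, 42 held in every fit that left out 1 mouse. The exact permutation test called 6 pairs that edgeR did not and missed 5 that edgeR called. Its p-values were adjusted over the pairs of gene and time, and those of edgeR over all tested genes. Without WT mice 1 and 4 no pair passed the permutation test after adjustment (smallest adjusted p = 0.128). The smallest p that 5 against 3 can give is 0.0179, so a pair could pass only if many reached it together. That outcome therefore does not decide whether the genotypes differ. Counts near 0, as for Gzmc at 0h and Gzmk at 24h, limit what could be detected there.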
